A study of Rattus norvegicus with 18 samples.

Results

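Maternally expressed imprinted genes are transcribed mainly from the copy inherited from the mother, and 9 of them were followed here, namely Igf2r, Slc22a2, Slc22a3, Kcnq1, Asb4, Ppp1r9a, Zim1, Trappc9 and Commd1. Their imprinted status is taken from the mouse and was not tested in these rat cells. A region counted for a gene when the RefSeq transcript that the authors' annotation gave it belonged to that gene in a table of rat RefSeq genes. The 9 genes are among 8242 named genes with a region in any of 4 deposited tables, and they hold 55 of the 61661 listed regions. That all 9 had a region is no finding, since the genes were chosen with earlier results of these data known.

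Genomic imprinting rests on DNA methylation that differs between the parental copies of a gene. Germ cells of the fetus erase these marks together with most other methylation, and later set new ones according to their own sex. In the mouse, several of the 9 genes are silenced on the paternal copy by, or lie beside, a paternally expressed transcript. Airn starts inside Igf2r and acts over Slc22a2 and Slc22a3, Kcnq1ot1 starts inside Kcnq1, Peg13 lies inside Trappc9 and Zrsr1 inside Commd1. Asb4 and Ppp1r9a belong to the Peg10 cluster, and Zim1 neighbours Peg3. The RefSeq table holds no symbol for Airn, Kcnq1ot1, Peg13 or Zrsr1, so regions of those transcripts were not analysed here.

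The cells were gonocytes, the germ cells of the fetal gonad, sorted by flow cytometry from Sprague-Dawley rats that carry a germ-cell-specific green fluorescent protein transgene (GCS-EGFP), which all groups share. Fat supplied 18% of the energy in the control diet of the dams and 45% in their high-fat diet (HFD), and gestational days (GD) were counted from the sperm-positive smear, which was GD0. At GD16 the labels give 4 control male, 3 control female, 4 HFD male and 3 HFD female samples, and at GD18 there are 4 control male samples. Whether a sample pools fetuses, and whether samples of a group come from separate litters, is not stated. The series' design text says that 4 samples were taken over from another project without naming their group, so origin and group cannot be told apart for the groups of 4. The purity of the sort could not be checked on marker genes, since methylation alone was measured.

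Methylation was read by bisulfite sequencing of captured target regions. A level below is the authors' mean for a group over all CpGs of a region, in percent, and a difference is given in percentage points. No value per sample, read count or coverage was used, because the tables hold group means, so no level carries an error or an n of its own, its depth is unknown, and no test across replicates was made. The words higher and lower are used only of differentially methylated regions that the authors listed, which in these tables means at least 5 CpGs, at least 10 points and a false discovery rate (FDR) under 0.05. The unit of the authors' test is not stated. Coordinates are those of the deposited tables, on a build that the sources used here do not give.

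The comparison of control males with control females at GD16 asks whether the sexes hold the same methylation at this stage. Each of the 9 genes had at least 1 listed region that was more methylated in males, with 41 of 42 regions higher in males and 1 region of Asb4 higher in females. Among all listed regions of this comparison 99.7% were higher in males, and 94.9% of the 8242 genes had a region, so neither count sets the 9 genes apart. Male levels over the 41 regions had a median of 19.7% (range 14.5 to 41.4%) and female levels a median of 4.9% (range 1.1 to 8.8%). These are ranges of group means over regions, and a gap of at least 10 points at each region was a condition of listing. Over all 47962 male-higher regions of the table the medians were 19.6% and 4.7%. The ranges there were 10.1 to 92.9% in males and 0 to 70% in females. Differences of 20 points or more were found at 8 of the 41 regions, against 17.4% of all male-higher regions.

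**Figure D1:**
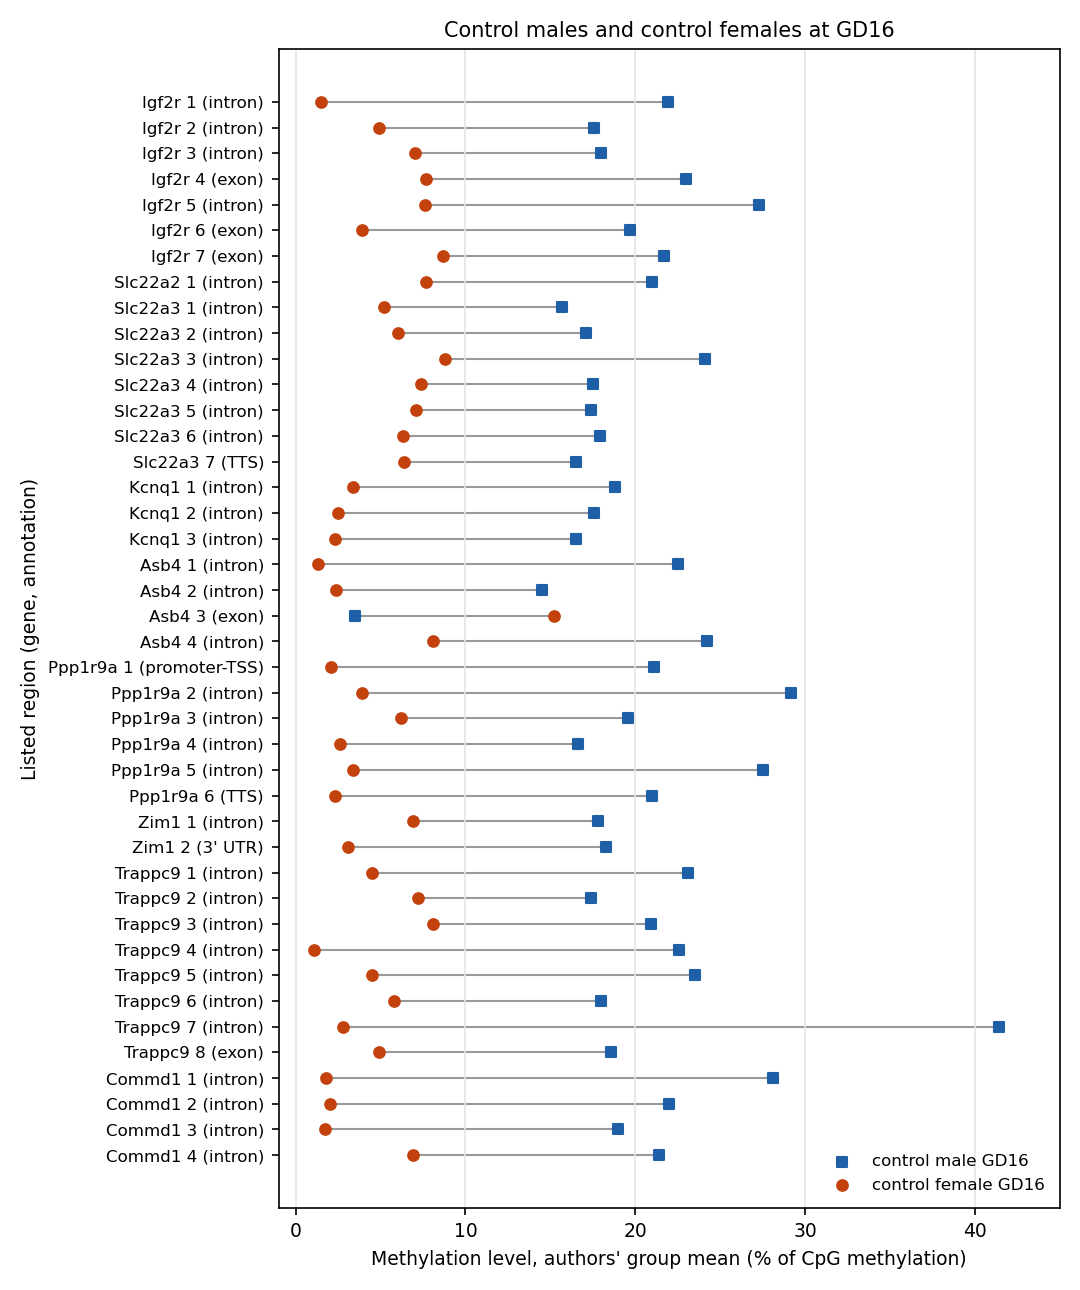
Authors' group means of methylation, in percent, for the 42 regions listed between control males (squares) and control females (circles) at GD16, numbered along each gene. Male levels lie between 14.5 and 41.4% except at the third region of Asb4, an exon where females stand at 15.2% and males at 3.5%.

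Trappc9 encodes a subunit of the TRAPP II complex, which directs vesicle traffic at the Golgi, and it held 8 regions over 201.5 kb, the most of the 9 genes. Its male levels ran from 17.4 to 41.4% and its female levels from 1.1 to 8.1% in the authors' means. The highest male level of all 9 genes lay in an intron of Trappc9 (chromosome 7, 114304068 to 114304252), where 6 CpGs averaged 41.4% in males and 2.8% in females. This difference of 38.6 points was larger than at 99.6% of the male-higher regions of the table (FDR 2.49e-13 in the authors' deposited table).

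That high level was confined to a short stretch among the listed segments. The intronic segment that ends 33 bp before it stood at 18.0% in males and 5.8% in females over 15 CpGs. The next listed segment, an exon that starts 1068 bp after it, had 18.6% and 4.9% over 14 CpGs. The lowest female level of the 9 genes was also in Trappc9, in an intron at 114254549 to 114255102, with 1.1% against 22.6% in males.

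Commd1, which acts in copper homeostasis and restrains NF-kB signalling, had 4 intronic regions with male levels of 19 to 28.1% and female levels of 1.7 to 6.9%. At chromosome 14, 107671923 to 107672202, its difference was largest, 28.1% in males against 1.8% in females. At 26.3 points it exceeded 95.7% of the male-higher regions. Female means were no higher than 2.0% at all its regions but 1, which at 107728113 to 107728311 had 6.9%.

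Igf2r encodes the mannose 6-phosphate receptor that takes up insulin-like growth factor 2 and sends it to lysosomes. It held 7 regions over 54.3 kb of chromosome 1, all higher in males, with 17.6 to 27.3% in males and 1.5 to 8.7% in females. The largest difference was in an intron at 48208986 to 48209293, with 21.9% against 1.5%. That region stands alone, 32126 bp from the next one, and the other 6 regions had female levels of 3.9% or more.

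Exons of Igf2r were listed in 3 places. The exon at 48249257 to 48249849 had 23.0% in males and 7.7% in females, that at 48255491 to 48255826 had 19.7% and 3.9%, and that at 48262723 to 48263304 had 21.7% and 8.7%. The exonic levels of males lay inside the range of the intronic ones, and those of females reached slightly above the highest intronic level, 7.6%.

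Slc22a2 and Slc22a3, the neighbours of Igf2r, encode the organic cation transporters OCT2 and OCT3. Slc22a2 had a single region, in an intron at chromosome 1, 48355353 to 48356155, where males had 21.0% and females 7.7%. Slc22a3 had 7 regions over 38.5 kb, with differences from 10.1 to 15.3 points. Of its regions, 6 stood between 15.7 and 17.9% in males, and the intronic region at 48497048 to 48497224 reached 24.1% against 8.8% in females. The region at the transcript end of Slc22a3 (48521322 to 48521700) had 16.5% against 6.4% over 15 CpGs. Female levels in Slc22a3 were never under 5.2%, above the female levels of Kcnq1, which were 3.4% at most.

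Kcnq1 encodes the pore subunit of a voltage-gated potassium channel of heart and epithelia. Its 3 intronic regions on chromosome 1 were alike in level, with 16.5 to 18.8% in males and 2.3 to 3.4% in females. The largest difference was 15.4 points at 216297581 to 216297927, with 18.8% in males and 3.4% in females. The first region lies 293006 bp from the next, and no region of Kcnq1 was listed between them in any of the 4 tables.

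Ppp1r9a encodes neurabin, an actin-binding protein that brings protein phosphatase 1 to dendritic spines. It was the only one of the 9 genes with a region annotated as promoter, at chromosome 4, 29978577 to 29979088, where males had 21.1% and females 2.1% over 6 CpGs. Its RefSeq promoter is shown to let the position of CpGs before a gene start be seen, beside that of Igf2r, which had no listed promoter region. The build of the listed region is not given, so the sequence was not matched to it, and the marked CpGs need not be those measured. Both sequences are the 250 bases before the gene start on the plus strand of GRCr8 (chr4:33988577-33988826 for Ppp1r9a and chr1:50526628-50526877 for Igf2r), and capitals mark each CpG.
Ppp1r9a: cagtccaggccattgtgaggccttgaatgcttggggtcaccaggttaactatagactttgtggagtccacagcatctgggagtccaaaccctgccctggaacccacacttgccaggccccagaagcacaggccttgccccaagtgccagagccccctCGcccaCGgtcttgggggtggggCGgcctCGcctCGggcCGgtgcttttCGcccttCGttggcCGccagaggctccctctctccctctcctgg
Igf2r: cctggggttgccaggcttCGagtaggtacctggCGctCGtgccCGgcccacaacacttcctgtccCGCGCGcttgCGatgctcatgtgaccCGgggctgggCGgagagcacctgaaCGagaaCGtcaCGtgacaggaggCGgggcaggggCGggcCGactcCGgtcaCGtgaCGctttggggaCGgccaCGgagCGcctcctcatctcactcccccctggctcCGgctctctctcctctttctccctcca
The Ppp1r9a sequence holds 9 CpGs, which lie in the part nearest the gene start, and the Igf2r sequence holds 23, spread over most of its length. Counted over the full window of 300 bases, which adds 50 bases after the start, the motif CG occurs 11 times at Ppp1r9a and 30 times at Igf2r. Of 33469 rat promoters in the RefSeq table, 39.0% hold at least 11 and 10.3% at least 30. The RefSeq table holds promoters of 7 of the 9 genes (all but Kcnq1 and Trappc9), and the remaining 5 hold 21 CpGs at Zim1, 9 at Asb4, 8 at Commd1, 7 at Slc22a2 and 5 at Slc22a3. These counts describe sequence only, and a promoter without a listed region may also not have been captured or covered.

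Within Ppp1r9a the 6 regions ranged from 16.6 to 29.2% in males and from 2.1 to 6.2% in females. The largest difference, 25.3 points, lay in an intron at 30050221 to 30050311, with 29.2% in males and 3.9% in females over 6 CpGs. Only 51 bp further began the region with the most CpGs of the 9 genes, 36 CpGs at 30050363 to 30051204, with 19.6% against 6.2%. The longer region had the smaller difference, 13.4 points, and the lower FDR, 6.28e-24 against 8.18e-08 in the authors' deposited table. An intron at 30216864 to 30217252 had 27.5% and 3.4%, and the transcript end at 30242301 to 30242459 had 21.0% and 2.3%.

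Asb4 encodes an adaptor of a cullin ubiquitin ligase with ankyrin repeats and a SOCS box, and it showed both directions. A pair of adjoining intronic segments on chromosome 4 was higher in males, with 22.5% against 1.3% at 30468996 to 30469197 and 14.5% against 2.4% at 30469198 to 30469557. The exon at 30492016 to 30492105 was the exception, where the means were 3.5% in males and 15.2% in females over 6 CpGs (FDR 0.00147 in the authors' deposited table). It was short, 90 bp, with 6.67 CpGs per 100 bp, the densest of the 42 regions. The intronic segment that starts 162 bp after it turned back to the male-higher direction, with 24.2% against 8.1%. Of the 48127 regions of this table, 165 were higher in females.

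Zim1, a zinc finger gene beside Peg3, had the fewest regions after Slc22a2. An intron at chromosome 1, 70246084 to 70246910, had 17.8% in males and 6.9% in females over 14 CpGs. Its 3' UTR at 70265578 to 70266262 had 18.3% and 3.1% over 11 CpGs.

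**Figure D2:**
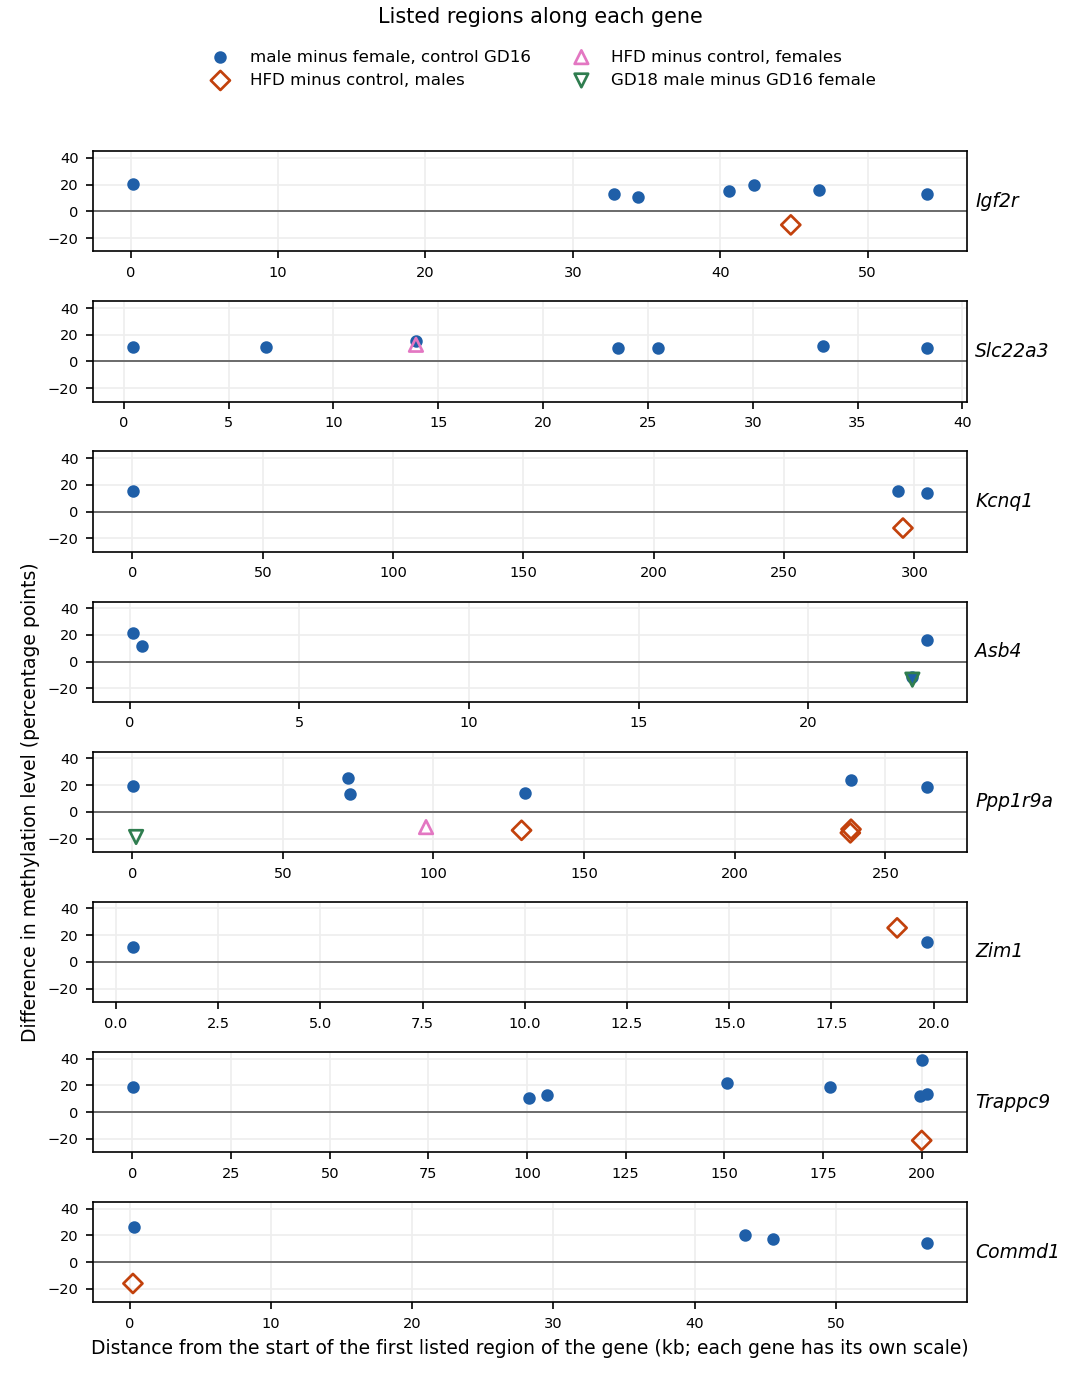
Difference in methylation level, in percentage points, of each listed region against its distance in kb from the first listed region of its gene; filled circles are control males minus control females at GD16, and open symbols the other comparisons. Slc22a2 is left out because it has only 2 distinct regions. The spacing of the male-higher regions is uneven, with 293006 bp between the first and the next region of Kcnq1, the Asb4 exon is the only filled circle below 0, and the Zim1 exon is the only diet difference in males above 0.

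The comparison of HFD with control males at GD16 asks what the maternal diet does to male germ cells. Levels fell on HFD at 8 of the 9 listed regions and rose at 1, in Zim1. A share of 74.0% of all 10084 regions was lower on HFD. Median levels at the 8 lower regions were 9.45% on HFD and 22.5% on the control diet, against 10.3% and 25.2% over all 7461 lower regions. A region was listed in 7 of the 9 genes, all but Slc22a3 and Asb4, while 35.6% of the 8242 genes had one. Genes with more regions between the sexes more often had a diet region, and by that number the shares were 2 of 2 against 21.7% for genes with 1 to 2 regions, 2 of 3 against 47.1% with 3 to 5, and 3 of 4 against 69.0% with 6 to 8. The 9 genes were chosen with earlier results of these data known. Of 14 other maternally expressed genes with a region in any comparison, given below, none had one here. The shares therefore describe the 9 genes and support no enrichment.

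The largest fall was in the Trappc9 intron described above, where the level went from 41.4% on control diet to 20.2% on HFD. Its difference of 21.2 points was larger than at 80.3% of the regions lower on HFD (FDR 3.05e-06 in the authors' deposited table). The HFD level, 20.2%, still exceeded the other 7 HFD levels, which lay between 2.9 and 13.9%.

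Ppp1r9a carried 3 of the 8 lower regions, all in introns. At 30216802 to 30217108 the level was 13.4% on HFD and 29.1% on control diet, and in the adjoining segment at 30217108 to 30217252 it was 13.9% and 26.9%. The third, at 30107665 to 30107991, had 6.5% and 20.3%. The adjoining pair shows nearly the same levels and the third region the lowest level on either diet.

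In Commd1 the intron at 107671760 to 107672202 had 8.7% on HFD and 24.6% on control diet over 9 CpGs. The intron of Slc22a2 at 48355579 to 48356155 had 6.8% and 19.1% over 11 CpGs, and that of Igf2r at 48253712 to 48253842 had 10.2% and 20.3% over 5 CpGs. The Igf2r difference, 10.1 points, lies just above the minimum for listing. Kcnq1 reached the lowest HFD level, with 2.9% against 15.2% in an intron at 216593030 to 216593487 that the annotation assigns to a MIRb SINE repeat.

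The exon of Zim1 at chromosome 1, 70265133 to 70265249, went the other way, with 25.5% on HFD while control males were listed at 0 over 6 CpGs (FDR 4.70e-06 in the authors' deposited table). Its 25.5 points were larger than at 81.7% of the regions higher on HFD. The 3' UTR region of Zim1, which starts 328 bp further, stood at 18.3% in the same control males, so neighbouring segments of the gene differed within the control group. The exon was not listed between control males and females.

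**Figure D3:**
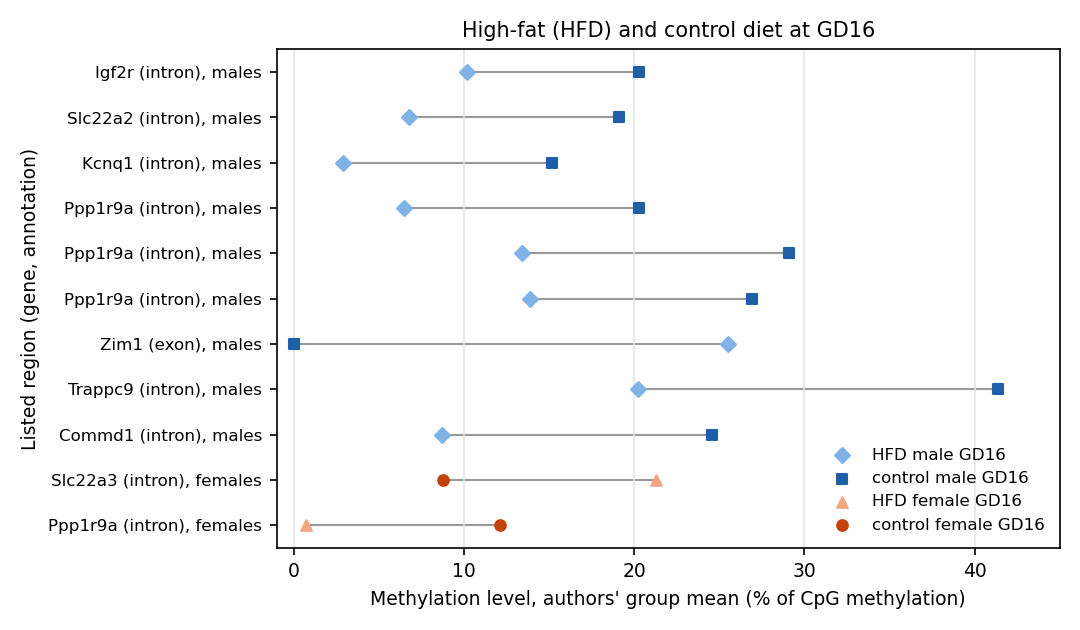
Authors' group means of methylation, in percent, for the 11 regions listed between HFD and control diet at GD16, 9 in males (diamonds and squares) and 2 in females (triangles and circles). In males 8 HFD levels lie to the left of the control level, and the Zim1 exon lies to the right, at 25.5% against 0%.

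In female germ cells 2 regions were listed between HFD and control diet, 1 in each direction, in 2 of the 9 genes. Among the 8242 genes 8.37% had a region here, and 71.7% of all regions were lower on HFD. The intron of Slc22a3 at 48497048 to 48497224 was higher on HFD, with 21.3% against 8.8% on control diet over 9 CpGs (FDR 0.00245 in the authors' deposited table). By contrast, a Ppp1r9a intron at 30076043 to 30076206 was lower, with 0.7% against 12.1% over 5 CpGs (FDR 0.0129 in the authors' deposited table). Ppp1r9a thus had regions lower on HFD in both sexes, but at different places, with 31458 bp between the nearest. Since 74.0% of all regions in males and 71.7% in females were lower on HFD, this does not set Ppp1r9a apart. Slc22a3 had no region in the male table. Whether the diet differences differed between the sexes was not tested. A fall of 10 points could not be listed where control females were under 10%, which held at 41 of the 42 regions of the sex comparison.

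The comparison of control males at GD18 with control females at GD16 mixes day and sex, which cannot be told apart. It listed 2 regions of the 9 genes, in Asb4 and Ppp1r9a, and both were lower in the GD18 males. Of all its regions 92.5% were lower in GD18 males, and 7.50% of the 8242 genes had a region. The Asb4 exon at 30492016 to 30492105 had 1.8% in GD18 males and 15.2% in GD16 females. The Ppp1r9a exon at 29979789 to 29979973 had 2.5% and 21.3% over 6 CpGs (FDR 0.00381 in the authors' deposited table). This exon starts 700 bp after the promoter region of Ppp1r9a, where the same GD16 females had 2.1%. No other region of the 9 genes was listed, so none of the 41 places higher in GD16 males appeared as higher in GD18 males. Over all genes only 122 regions were higher in GD18 males, against 47962 in GD16 males, so this absence does not set the 9 genes apart. The GD18 levels at those 41 places were not analysed here.

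Regions of 2 tables overlapped in 7 pairs, in 6 of the genes. The 2 pairs of Ppp1r9a share 1 region between the sexes, at 30216864 to 30217252. The levels can be set side by side, with the limit that the tables share a control group in each pair. At 3 of them the segments were identical, and the shared group then had the same mean in both tables. Both listings put the shared group on the same side, so its position as highest or lowest follows from the listing. Over all listed regions the median was 10.3% in HFD males where lower on HFD, and 4.7% in control females where higher in males. How often each order occurs over all overlapping regions was not counted. In the Trappc9 segment HFD males (20.2%) lay between control males (41.4%) and control females (2.8%). At the overlapping Commd1 segments the levels were 8.7% in HFD males, 24.6 and 28.1% in control males and 1.8% in control females. At the overlapping Ppp1r9a segments HFD males had 13.4 and 13.9%, control males 26.9 to 29.1% and control females 3.4%.

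Slc22a2 differed from these in that HFD males (6.8%) stood beside control females (7.7%), with control males at 19.1 and 21.0%. In the Slc22a3 segment it was HFD females (21.3%) that stood near control males (24.1%), and control females had 8.8%. In the Asb4 exon both male groups were low, with 3.5% at GD16 and 1.8% at GD18, and control females had 15.2%. None of these orders was tested between samples, and HFD females were not listed at the Trappc9, Commd1, Ppp1r9a and Slc22a2 segments, HFD males not at the Slc22a3 segment and neither at the Asb4 exon.

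**Figure D4:**
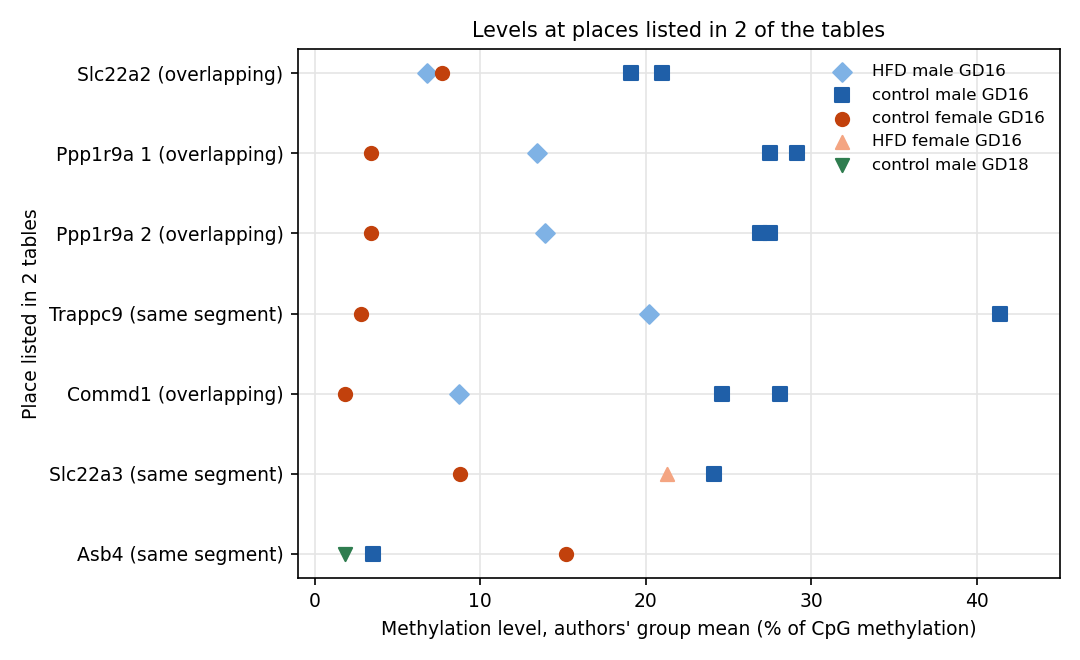
Authors' group means of methylation, in percent, for the 7 pairs of regions of 2 tables that are the same segment or overlap. The 2 pairs of Ppp1r9a share 1 region between the sexes. A group has 2 symbols where overlapping segments gave it 2 means. HFD males lie between the control sexes at Trappc9, Commd1 and Ppp1r9a and beside control females at Slc22a2, and HFD females lie near control males at Slc22a3. The position of the shared control group as highest or lowest follows from the listing.

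By annotation, 43 of the 55 regions were intronic, 8 exonic, 2 at a transcript end, 1 in a 3' UTR and 1 at a promoter. Introns made up 78.6% of the 42 regions between the sexes and 72.6% of all gene-assigned regions of that table. A repeat was named for 4 of the 55, and none was annotated as a CpG island. The shares of repeats and CpG islands over all listed regions were not counted, so neither number sets the 9 genes apart. The male-higher regions of the 9 genes had a median of 9 CpGs and 2.16 CpGs per 100 bp, and all male-higher regions 9 and 2.21.

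Other imprinted genes were counted from lists taken from mouse imprinting. Of 35 further maternally expressed genes, 32 had a symbol in the RefSeq table and 14 had a region in any table. All 20 of their regions came from the comparison of the sexes and were higher in males, with medians of 20% in males and 5.0% in females, and none appeared in the other 3 tables. Of 32 paternally expressed genes, 27 had a symbol in the RefSeq table and 11 had a region in any table. The share of all RefSeq genes with a region was not counted, so 14 and 11 have no such share beside them. Between the sexes the paternally expressed genes had 60 regions, all higher in males, with medians of 19% and 4.45%. Since 99.7% of all regions were higher in males, neither count sets a list apart. In HFD males 6 of these genes had 11 regions, all lower on HFD, with medians of 9.70% against 22.2% on control diet, where 35.6% of the 8242 genes had a region and 74.0% of all regions were lower. At GD18 the paternally expressed genes had 2 regions, both lower, and in HFD females none was listed.

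Genes that share a cluster with the 9 were also higher in males where listed, as were 99.7% of all regions of that comparison. Pon2, next to Asb4 and Ppp1r9a, had 23.4% in males and 5.6% in females over 20 CpGs. The 2 exonic regions of Peg3, beside Zim1, had 13.8% against 1.9% and 14.1% against 3.1%. Kcnk9, near Trappc9, had 20.1% against 9.7%, and the 2 regions of Calcr had 16.4% against 4.0% and 17.1% against 3.1%. Near Kcnq1, and named after their values were seen, Tssc4 had 24.3% in males and 1.5% in females at its transcript end, and the 2 regions of Osbpl5 had 19.9% against 3.1% and 21.6% against 5.1%. None of these genes had a region in the other 3 tables. Cdkn1c, Phlda2 and Slc22a18, in the cluster of Kcnq1 in the mouse, Peg10, Sgce and Pon3, in that of Asb4, Usp29, beside Peg3, and Ago2 and Chrac1, beside Trappc9, had no region in any table.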

How the data were processed

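The 4 full tables of the authors' comparisons were used. The submitters' processing notes name Bowtie2 and Bismark 0.19.0. Per the series' design text, methylation was extracted per sample and locus, cut into segments of at least 50 bp and searched for differentially methylated regions. Per the file headers, each region carries 2 group means of CpG methylation (case and control), each a fraction between 0 and 1 and printed here in percent, and the p-value of a two-sample test with an FDR. The signed difference is a score deposited by the authors, case minus control. No coverage was available for use, so depth and precision are unknown.

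Transcript identifiers, after a stray bracket was removed from 454 of them, were matched to rat RefSeq genes (assembly GRCr8, for names only), and 94.1 to 94.7% of the distinct identifiers per table had a symbol. Regions of different tables were intersected at a minimum overlap of 1 bp, a step tested on simulated data. No test was made beyond those of the authors. Each gene was named, with the region of largest difference per comparison, every region outside introns and every region listed in 2 tables, and genes sharing a cluster were taken from the lists. The members and lists were chosen with earlier results of these data known. Alternatives were the minimum difference, CpG number, length and FDR, the identifier clean-up, intergenic annotation and the overlap. The 2 lists of rises of at least 50 points hold no region of these genes and were not used. Python 3.11.15, pandas 2.3.3, numpy 2.4.6 and matplotlib 3.10.9 were used.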

Additional observations from a re-analysis of the deposited data

How the results depend on the processing

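With a minimum difference of 20 points, 2 of the 9 regions of HFD males remained (Zim1 higher, Trappc9 lower) and 8 of the 42 between the sexes, all higher in males. With a minimum of 10 CpGs, 1 region of HFD males remained (Slc22a2, lower) and 16 between the sexes, all higher in males, so the female-higher exon of Asb4 and the Zim1 exon rest on fewer CpGs. Neither setting left a region of HFD females or of GD18 males. An FDR of at most 0.01 left 1 of 2 regions of HFD females (Slc22a3). A length minimum, uncleaned identifiers, leaving out intergenic annotation and a reciprocal overlap of at least 50% changed no count by over 1.5 times. No paired analysis was possible because the tables hold group means and no value per sample, and leaving out replicates or setting a coverage minimum was not run for the same reason. Depth and the spread between animals are unknown, so no level can be given an error.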

Other observations

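Some genes that lie beside the imprinted ones had regions as well, and they were chosen after their values were seen. Plg, the plasminogen gene beyond Slc22a3, had 4 intronic regions, all higher in males, with 18.0 to 24.6% in males and 4.8 to 9.0% in females, and no diet region. Cct4, beside Commd1, had an intronic region lower on HFD in males, with 5.8% against 18.6% on control diet in the authors' means.

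The transcript end of Apeg3, which is antisense to Peg3, was listed in 2 tables over the same 62 bp. The authors' means were 31.7% in GD16 males, 15.9% in GD16 females and 4.8% in GD18 males, all on control diet. The Asb4 exon was listed in the same pair of tables with both male groups under the females.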
